A study of Mus musculus with 6 samples.

Results

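The genes described here are 43 genes of the lysosome, chosen by name from the 56953 gene identifiers in the table: 7 lysosomal membrane proteins, 12 proteases, 12 hydrolases that act on sugar chains, 4 genes of lysosomal lipid handling, the 3 MiT transcription factors Mitf, Tfeb and Tfe3, and 5 genes of the proton pump. Their RNA was measured by poly(A) RNA sequencing in mouse embryonic fibroblasts (MEFs), with 3 libraries of wild-type cells (WT) and 3 labelled GαqKO. By the study's methods that label stands for cells made to lack both Gαq and Gα11, the closely related G protein subunits that couple receptors to phospholipase C beta. Both groups grew in serum-containing medium, and the sources used here give neither a treatment nor the embryo, clone or knockout alleles behind each culture. The study asked how the loss of Gαq alters fibroblasts and their endosomal and lysosomal system, and the comparison here asks which lysosomal genes differed in RNA level between the groups.

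Lysosomes are acidic organelles in which hydrolases break down proteins, sugar chains and lipids delivered by endocytosis and autophagy. A V-type proton pump keeps them acidic, most soluble hydrolases reach them through mannose 6-phosphate tags and receptors, and heavily glycosylated membrane proteins such as Lamp1 and Lamp2 line their membrane. Factors of the MiT family bind an E-box motif, known as the CLEAR element, near the start of many lysosomal genes, and mTORC1 and the Rag GTPases hold them in the cytoplasm when nutrients are plentiful.

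Values are normalized counts, meaning read counts divided by 1 size factor per library, and they totalled 11392429 to 11483486 per library. Gnaq, the gene that encodes Gαq, was not lower in the libraries labelled GαqKO, with means of 1926 against 1691 in WT (log2 fold change 0.19, limma adjusted p = 0.00212), whereas Gna11, which encodes Gα11 and is the other gene of the stated genotype, was lower, with means of 451.6 against 2148 (log2 fold change -2.25). By Western blot and immunofluorescence, the study reported that Gαq protein was missing from its GαqKO MEFs. RNA counts alone do not show whether a Gnaq transcript makes protein, so the groups are called by their labels. All 10 fibroblast markers examined were tested, of which 6 rose and 4 fell relative to WT, and their sum was 82502 to 88436 in WT and 62257 to 65466 in the other group. Pdgfra, Dcn and Thy1 had WT means of 19.6, 32.05 and 0.696 and rose to 2320, 1663 and 64.9, while Col1a1 (16670 to 5774, log2 fold change -1.53), Fn1 (11830 to 7117, -0.73), Col1a2 (-0.36) and Vim (-0.32) fell. Summed over 6 epithelial markers, counts ran from 515.1 to 540.8 in WT and from 10 to 23.2 in the libraries labelled GαqKO, mostly from Cdh1 and Krt14. The Y-linked gene Ddx3y read 1214, 1139 and 1239 in WT and 0 in every library labelled GαqKO, so the groups also differ in Y-linked RNA. Cell composition, cell line and genotype cannot be told apart in this design, nor can fewer cells of a type from less RNA per cell.

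Of the 43 members, 39 reached 10 normalized counts in 3 or more libraries and were tested. Relative to WT, the libraries labelled GαqKO had more RNA of 13 and less of 17 (limma on log2(normalized counts + 1), Benjamini-Hochberg adjusted p under 0.05 over all 14096 genes tested), and 9 were not called. These are 33.3% and 43.6% of the tested members, against 31.8% of all genes tested called higher and 34.1% called lower. Beyond a log2 fold change of 1 in either direction, 3 members were higher (Ctsl, Ctso and Mitf) and 5 lower (Ctsc, Ctsh, Ids, Neu1 and Lipa), or 7.69% and 12.8% against 10.2% and 10.5% of all genes. Ctsc and Ctsh reached 10 normalized counts in WT libraries alone. The median log2 fold change was 0 over the tested members and -0.012 over all genes, and the median size of the change was 0.40 and 0.39. The members were therefore called higher about as often as genes at large and lower somewhat more often. The median size of their changes was about the same. No library of one group overlapped the other group for 31 of the 39 (79.5%), against 69.6% of all genes tested, and 2 of the 31, Ctsd and Gaa, were not called.

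**Figure D1:**
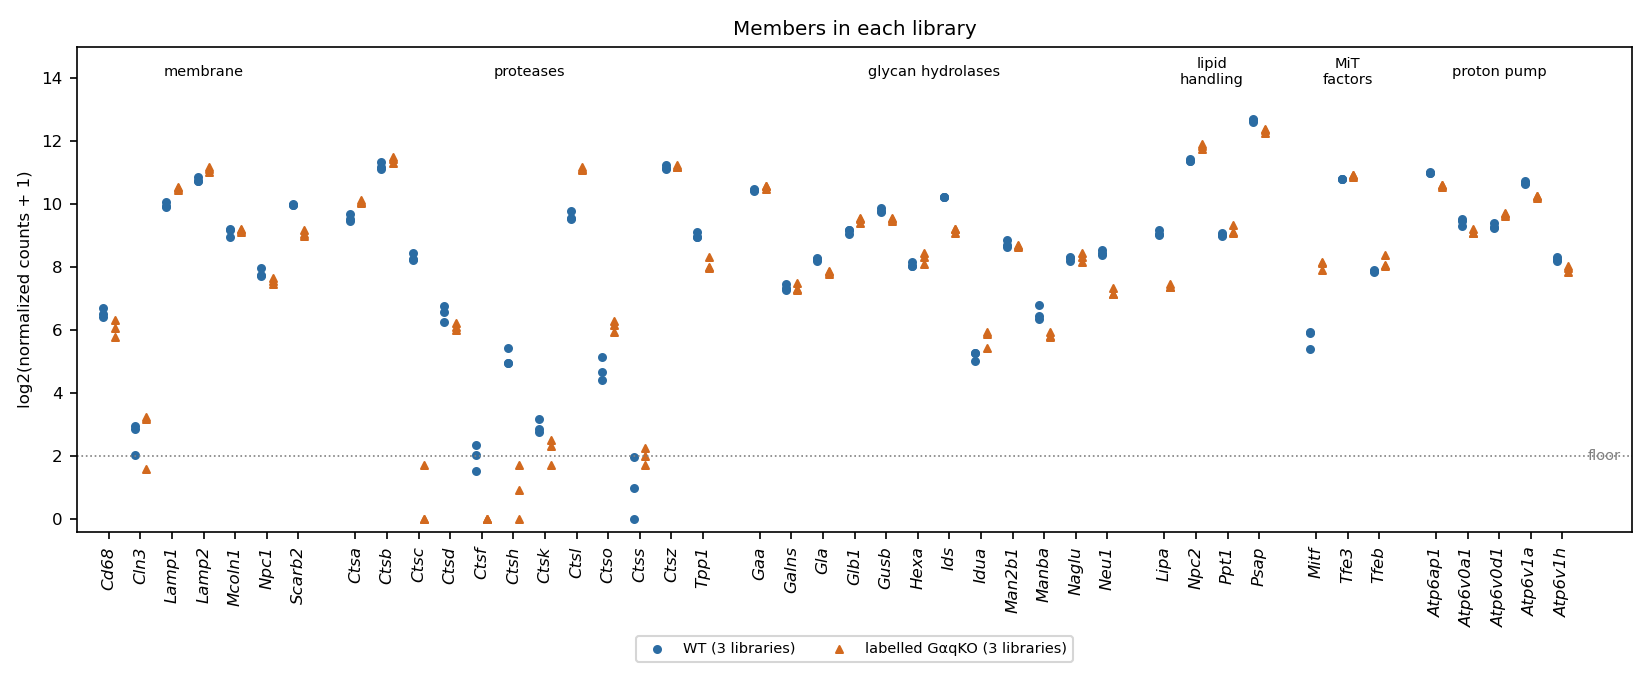
The level of each of the 43 members, as log2(normalized counts + 1) on the vertical axis, in the 3 WT libraries (circles) and the 3 libraries labelled GαqKO (triangles), with members grouped by role. The dotted line marks the floor of 3 normalized counts, and Ctsc and Ctsh drop below it in all libraries labelled GαqKO.

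Summed over the members, the totals of both groups overlapped while the sums of each role did not. The 43 genes together gave 35138 to 36372 normalized counts in WT and 35345 to 36084 in the libraries labelled GαqKO, or 0.307% to 0.318% and 0.308% to 0.317% of all counts. Within that total, the proteases took 6872 to 7610 in WT and 8646 to 9018 in the other group, and the MiT factors 2064 to 2083 and 2438 to 2519. The membrane proteins also summed higher, at 4559 to 4752 against 4944 to 5153. The glycan hydrolases, at 6006 to 6039 and 5167 to 5279, and the proton pump, at 5317 to 5379 and 4357 to 4425, went the other way, as did the lipid genes at 10012 to 10623 and 9122 to 9947. All of these role sums were separated between the groups, as were 69.6% of all genes tested when taken singly, but several rested on 1 or 2 genes. Without Ctsl the protease sums overlapped (6118 to 6864 and 6422 to 6841), without Lamp1 and Lamp2 the membrane sums turned to 1854 to 1928 in WT and 1349 to 1407, and without Psap the lipid sums turned to 3675 to 3885 and 4168 to 4607. The pump sums without Atp6ap1, the most abundant subunit gene among the members, were still separated, at 3231 to 3353 in WT and 2825 to 2868. Glycan hydrolase sums without Ids stayed separated too (4806 to 4822 and 4628 to 4682). So did the MiT sums without Mitf (2005 to 2041 and 2199 to 2234). The overlap of the totals over all members depended on Psap. Without Psap these totals were separated, at 28526 to 29635 in WT and 30352 to 30680 in the libraries labelled GαqKO.

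**Figure D2:**
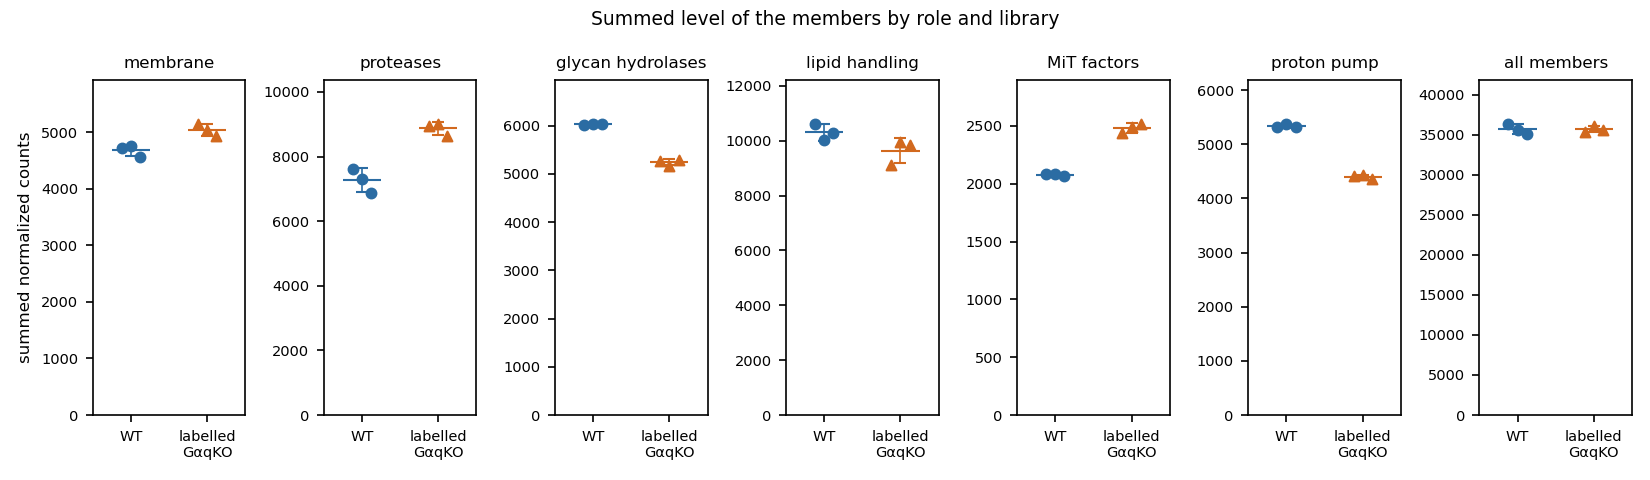
Summed normalized counts (vertical axis, starting at 0 in each panel) of the members by role and of all members, for each library, with a horizontal line at the group mean and bars of 1 SD over 3 libraries. The sums of all members overlap between the groups, at 35138 to 36372 in WT and 35345 to 36084 in the libraries labelled GαqKO, while the sums of each role do not. The sums of all members without Psap, not plotted, do not overlap.

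All 3 MiT factors were called higher in the libraries labelled GαqKO, by very different amounts, where 31.8% of all genes tested were called higher. Over 16 alternative fits, Mitf kept its call in each, Tfeb lost it in 5 and Tfe3 in 10, with DESeq2 among the losses of both. Mitf (ENSMUSG00000035158.16, chr6:97783950-97998323 in GRCm39), known as the master regulator of pigment cells and a driver of lysosomal genes in osteoclasts, read 41.8, 60.2 and 59.0 in WT and 238.5, 278.7 and 285.0 in the libraries labelled GαqKO. Every library labelled GαqKO was thus far above every WT library, with a log2 fold change of 2.31 (SE 0.16, adjusted p = 2.06e-08). Of 7 pigment cell markers, 1 was tested and none was called. In every library 4 of 7 were at or under the floor, the list summed to 16.6 to 18.4 in WT and 9 to 15 in the other group, and Tyr was at 0 in WT. Among 6 osteoclast markers, 4 were likewise at or under the floor in every library. Nfatc1, an osteoclast regulator that other cells also express, gave nearly all of that list's sum, at 581.9 to 609.8 in WT and 614.3 to 725.9 in the other group, and was not called.

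Tfeb, the best known driver of lysosome biogenesis, read 239.1, 233.1 and 229.0 in WT and 262.0, 334.2 and 265.9 in the libraries labelled GαqKO. The groups did not overlap, with the second library labelled GαqKO set above the others, and the log2 fold change was 0.29 (SE 0.105, adjusted p = 0.0266). The call did not hold without that library (0.17, adjusted p = 0.141), nor without WT replicate 2 (0.0656) or 3 (0.061). Tfe3, an X-linked relative with overlapping targets, read 1802, 1788 and 1776 against 1937, 1878 and 1968, which is a small, non-overlapping rise of 0.11 (SE 0.043, adjusted p = 0.0422). Of the 6 fits that each left out 1 library, that without GαqKO replicate 2 alone kept the Tfe3 call, with adjusted p = 0.0444 there and 0.0567 to 0.135 in the others. Per kilobase of exon, Tfe3 remained the most abundant of the family, at 190 to 193 normalized counts in WT and 201 to 211 in the other group, followed by Tfeb at 33.3 to 34.8 and 38.1 to 48.6, while Mitf moved from a range of 4.12 to 5.93 up to one of 23.5 to 28.1.

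Since all 3 MiT factors were called higher in the main fit, the promoters of the members were searched for the motif these factors bind. RefSeq promoters (GRCm38.p6), which run from 250 bases before to 50 bases after the start site, were found for 38 members (46 promoters), and the letters CACGTG, which read the same on both strands, occurred in 28.3% of these against 7.15% of all 32851 promoters. The longer TCACGTG, on either strand and always overlapping the shorter motif, occurred in 23.9% against 3.77%. The promoters of 6 members are shown from 250 bases before to 30 bases after the start, 5′ to 3′ on the gene's strand with CACGTG in capitals, because their genes carry the motif yet differ in the comparison. Lamp1 (chr8:13158911-13159190, + strand), Ctsa (a second start, chr2:164833523-164833802, + strand) and Glb1 (chr9:114400828-114401107, + strand) were called higher, Mcoln1 (chr8:3500269-3500548, + strand) was not called, and Atp6v1a (chr16:44139230-44139509, - strand) and Gla (chrX:134600976-134601255, - strand) were called lower.
Lamp1: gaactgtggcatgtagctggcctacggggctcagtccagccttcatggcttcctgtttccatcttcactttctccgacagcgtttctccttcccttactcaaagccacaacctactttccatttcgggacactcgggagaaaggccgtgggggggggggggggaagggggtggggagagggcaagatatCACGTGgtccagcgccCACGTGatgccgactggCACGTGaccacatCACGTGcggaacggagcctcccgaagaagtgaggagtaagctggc
Ctsa: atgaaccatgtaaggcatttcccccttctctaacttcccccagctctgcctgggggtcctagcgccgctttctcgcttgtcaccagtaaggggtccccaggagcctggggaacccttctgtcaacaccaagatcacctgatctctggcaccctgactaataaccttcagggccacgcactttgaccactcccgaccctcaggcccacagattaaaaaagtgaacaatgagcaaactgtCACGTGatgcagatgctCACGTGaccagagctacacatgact
Glb1: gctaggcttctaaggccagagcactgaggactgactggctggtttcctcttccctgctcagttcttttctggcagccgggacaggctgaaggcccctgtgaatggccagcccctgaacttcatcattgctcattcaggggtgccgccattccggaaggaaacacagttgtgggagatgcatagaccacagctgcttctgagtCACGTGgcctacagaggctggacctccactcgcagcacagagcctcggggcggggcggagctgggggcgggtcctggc
Mcoln1: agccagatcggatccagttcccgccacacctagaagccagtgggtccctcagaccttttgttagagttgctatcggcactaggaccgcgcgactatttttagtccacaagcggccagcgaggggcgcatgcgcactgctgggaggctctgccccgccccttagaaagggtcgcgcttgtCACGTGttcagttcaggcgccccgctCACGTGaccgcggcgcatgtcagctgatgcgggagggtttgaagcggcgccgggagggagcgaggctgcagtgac
Atp6v1a: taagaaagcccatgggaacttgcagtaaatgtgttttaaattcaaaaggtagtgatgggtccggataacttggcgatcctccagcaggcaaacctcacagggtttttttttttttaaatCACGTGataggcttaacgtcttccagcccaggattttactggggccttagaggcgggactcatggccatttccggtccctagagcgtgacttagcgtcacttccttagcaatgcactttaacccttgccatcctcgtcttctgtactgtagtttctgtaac
Gla: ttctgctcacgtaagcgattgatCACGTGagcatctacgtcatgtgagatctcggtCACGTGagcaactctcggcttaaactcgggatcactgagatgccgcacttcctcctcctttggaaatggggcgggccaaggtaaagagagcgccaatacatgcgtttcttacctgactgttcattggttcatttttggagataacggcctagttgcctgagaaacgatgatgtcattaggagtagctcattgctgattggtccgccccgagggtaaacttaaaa

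Lamp1 holds 4 copies within 61 bases of its start, Ctsa, Mcoln1 and Gla hold 2 each, and Glb1 and Atp6v1a hold 1. TCACGTG was found for 4 of the 12 higher members with a promoter entry (Lamp1, Ctsa, Glb1 and Atp6v0d1), for 2 of 14 lower members (Atp6v1a and Gla) and for 4 of 8 uncalled members (Ctsd, Gaa, Mcoln1 and Naglu). CACGTG without the extra base occurred for Ctsl, which rose, and Ctsf, which was not tested; Cln3, also not tested, held TCACGTG. Members with the motif were therefore found among the higher, the lower and the uncalled. Over all tested genes with a promoter entry, the median log2 fold change was -0.04 for the 682 with TCACGTG and -0.04 for the 9114 without. A match describes these letters only and is not evidence of binding.

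Among the membrane proteins, the libraries labelled GαqKO had more Lamp1 and Lamp2 and less Scarb2, Cd68 and Npc1. Lamp1, the most used lysosome marker, read 1082, 973.4 and 987.3 in WT and 1491, 1390 and 1462 in the other group. The groups did not overlap, with a log2 fold change of 0.51 (SE 0.055, adjusted p = 1.98e-06), and less the median of chromosome 8 the change was 0.22 (adjusted p = 0.00358). Lamp2, the receptor of chaperone-mediated autophagy in one of its isoforms, read 1725, 1851 and 1718 against 2314, 2255 and 2075, again without overlap (0.33, SE 0.052, adjusted p = 8.98e-05). Lamp1 exons lie 81.0% within the spans of Grtp1 and a predicted gene, so reads shared with these cannot be told from its own.

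Scarb2, also called LIMP-2, carries glucocerebrosidase to the lysosome, and its level was 1003 to 1043 in WT and 514.5 to 577.0 in the libraries labelled GαqKO (log2 fold change -0.91, SE 0.06, adjusted p = 1.27e-08). Its fall, to 53.2% of WT, was the steepest of the membrane members. Cd68, a glycoprotein abundant in macrophage lysosomes, fell from a range of 84.6 to 103.9 in WT to one of 54.5 to 79.8 (-0.48, adjusted p = 0.0296), and all of its exon length lies within a predicted gene. That call was lost without WT replicate 2 (adjusted p = 0.117) or 3 (0.0549) and without GαqKO replicate 1 (0.122) or 3 (0.0612). Macrophage markers beside it summed to 166.1 to 186.7 in WT and 412.8 to 421.5 in the libraries labelled GαqKO, almost all of the difference being Cd14, at 93.6 to 106.5 and 361.9 to 368.1. The defining markers Itgam and Tyrobp were at 0 in all 6 libraries, though 99.1% of the Itgam exon length lies within other genes. Of the 13 markers, 3 were tested and 1, Cd14, was called. The other tested markers were Csf1r (10.7 to 20.4 in WT and 8.1 to 15 in the libraries labelled GαqKO) and Fcer1g (30.5 to 38.9 and 18.5 to 27.2).

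Npc1, the membrane-bound part of the cholesterol exporter, was called lower with 210.9 to 249.4 in WT and 178.2 to 200 in the other group (-0.26, adjusted p = 0.0454). It too lost its call without WT replicate 2 (0.0644) or 3 (0.164) or GαqKO replicate 1 (0.0929) or 3 (0.132). Mcoln1, the calcium channel TRPML1, overlapped between the groups at 498.7 to 598.4 and 562.5 to 589.7, with a log2 fold change of 0.06 and a 95% interval of -0.10 to 0.22. Cln3, the gene mutated in juvenile Batten disease, was too low to test, at 3.1 to 6.8 and 2.0 to 8.5 normalized counts.

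Among the 9 proteases tested, 4 rose and 3 fell (44.4% and 33.3%, against 31.8% and 34.1% of all genes tested), with the steepest falls of all members in Ctsc and Ctsh. Cathepsin C (Ctsc, ENSMUSG00000030560.18, chr7:87927092-87960096 in GRCm39), which activates serine proteases of immune cells, read 305.9, 347.8 and 299.2 in WT and 0, 2.3 and 0 in the libraries labelled GαqKO. Measured against a floor of 3 counts per library, it was at least 106-fold lower (adjusted p = 1.47e-09), and its fitted log2 fold change of -7.74 depends on the pseudocount. Cathepsin H (Ctsh, ENSMUSG00000032359.15, chr9:89936205-89958148 in GRCm39), an aminopeptidase, read 30.3, 30.1 and 42.7 against 0.9, 2.3 and 0. It was at least 11.5-fold lower (adjusted p = 4.03e-06), so that both genes were at the floor in every library labelled GαqKO. No other gene's span overlaps the exons of either.

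Cathepsin L (Ctsl, ENSMUSG00000021477.10, chr13:64507151-64518704 in GRCm39), a broad-acting endopeptidase that fibroblasts can also secrete, moved the other way. It read 745.6, 886.9 and 753.2 in WT and 2352, 2176 and 2225 in the libraries labelled GαqKO, a 2.83-fold rise (log2 fold change 1.5, SE 0.066, adjusted p = 1.79e-10). The lowest of the latter was well above the highest WT library. Cathepsin O (Ctso, ENSMUSG00000028015.4, chr3:81839873-81867246 in GRCm39), a little studied cysteine protease, rose from a far lower level, with 34.5, 24.3 and 20.4 against 77.0, 70.5 and 60.4 (1.39, SE 0.236, adjusted p = 0.000151). Chromosome 3, where it lies, had a median log2 fold change of 0.32 over its tested genes, and the change of Ctso beyond that median was 1.06.

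Cathepsin A (Ctsa), a carboxypeptidase that protects β-galactosidase and neuraminidase in a complex, rose from a range of 704.4 to 827.0 in WT to one of 1061 to 1139 (0.54, SE 0.065, adjusted p = 5.85e-06). Its complex partners went apart: β-galactosidase (Glb1) was higher and neuraminidase (Neu1) lower, with values given among the glycan hydrolases. Cathepsin B (Ctsb), an abundant endopeptidase and exopeptidase, read 2609, 2336 and 2223 in WT and 2751, 2928 and 2558 in the libraries labelled GαqKO. The third library labelled GαqKO lay below the first WT library, so the groups overlapped, and the called difference was small (0.20, SE 0.063, adjusted p = 0.012). It was lost without WT replicate 2 (0.0543) or 3 (0.0524) and without GαqKO replicate 2 (0.0713).

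Cathepsin D (Ctsd), the main aspartic protease of lysosomes, read 108.6, 94.2 and 75.3 in WT and 74.2, 63.6 and 68.5 in the other group. The groups did not overlap, by a margin of about 1 count, and the difference missed the threshold (-0.41, SE 0.174, 95% interval -0.79 to -0.04, adjusted p = 0.0508). Without WT replicate 3 it was called (-0.55, adjusted p = 0.0163). Of the Ctsd exon length, 67.8% lies within a predicted gene, Gm49369, as do 65.4% of the Ctsa and 75.9% of the Ctsz exon length within other genes, and how the counting treated reads that fit more than 1 gene was not tested. Tpp1, which removes tripeptides from protein ends, fell from a range of 496.7 to 554.7 to one of 251.8 to 321.4 (-0.91, SE 0.097, adjusted p = 1.97e-06). Cathepsin Z (Ctsz), a carboxypeptidase, was high in both groups and not called, at 2243 to 2440 and 2310 to 2415 (0.02, 95% interval -0.08 to 0.12).

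The remaining proteases were too low to test. The bone-resorbing cathepsin K (Ctsk) read 5.8 to 8.1 in WT and 2.3 to 4.7 in the other group, Ctsf 1.9 to 4.1 and 0, and the immune cell cathepsin Ctss 0 to 2.9 and 2.3 to 3.8. Ordered by normalized counts per kilobase of exon, the WT proteases ran Ctsz (605 to 658), Ctsb (290 to 340), Ctsa (137 to 161), Ctsl (112 to 133), Tpp1 (92.1 to 103), Ctsc (47.8 to 55.6), Ctsd (27.2 to 39.2), Ctsh (6.02 to 8.54) and Ctso (1.82 to 3.08), with no overlap between neighbours. In the libraries labelled GαqKO the order began with Ctsz (623 to 651), followed by Ctsb (333 to 381) and Ctsl (326 to 353), whose ranges overlapped, and then Ctsa (206 to 221) and Tpp1 (46.7 to 59.6). By these counts Ctsl thus passed Ctsa and reached the level of Ctsb, while Ctsc left the list. Given the exon overlaps of Ctsz, Ctsa and Ctsd stated above, their places may depend on how shared reads were counted, which was not tested.

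**Figure D3:**
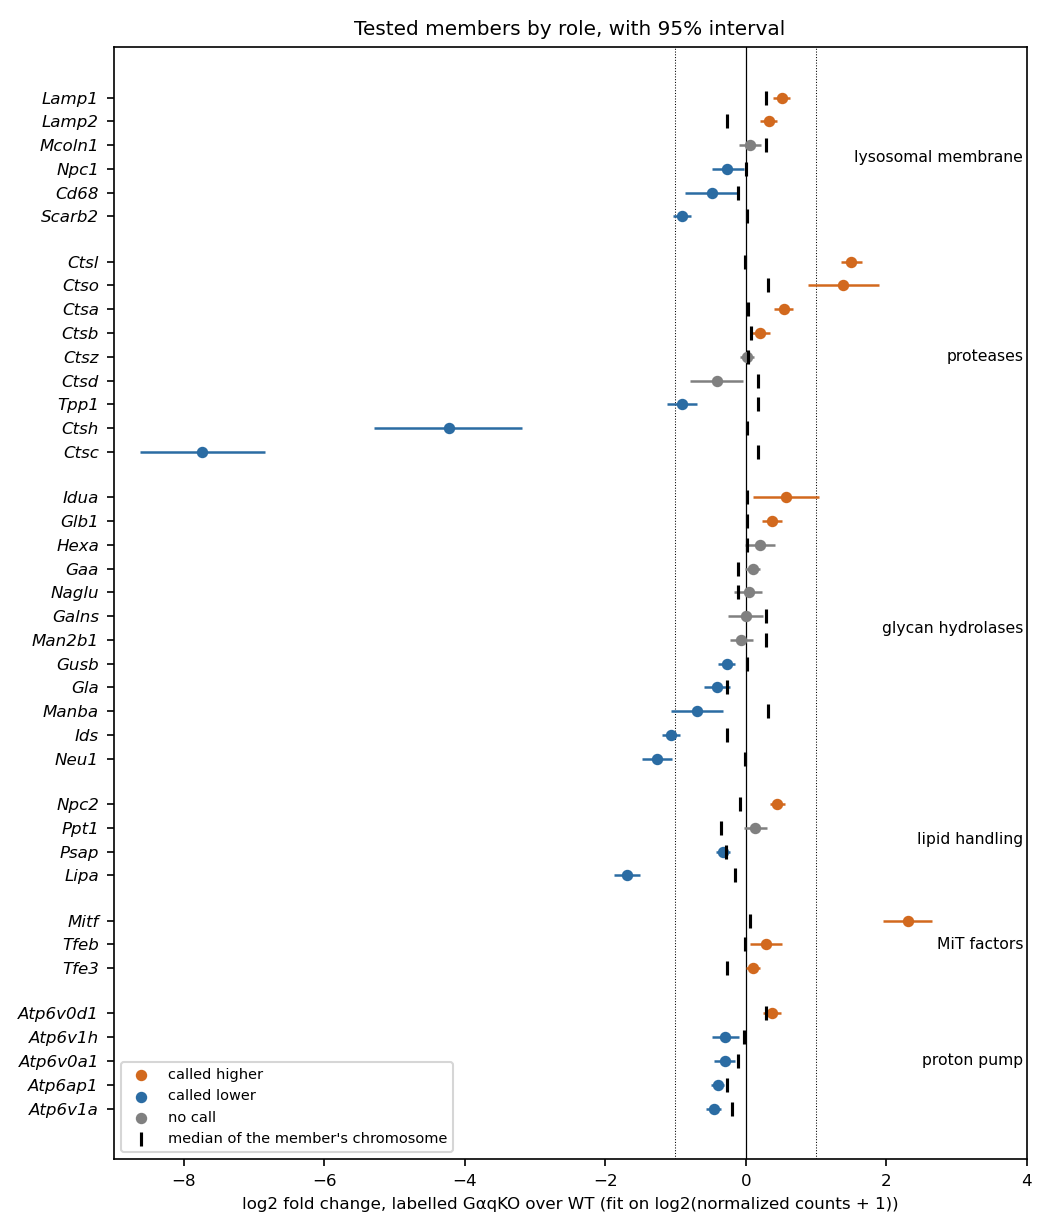
Log2 fold change of the 39 tested members (horizontal axis, libraries labelled GαqKO over WT) with its 95% interval, grouped by role and coloured by call, with black ticks at the median of all tested genes on the same chromosome and dotted lines at a log2 fold change of 1 in each direction. Ctsc and Ctsh stand far to the left, at -7.74 and -4.23, Mitf farthest to the right, at 2.31, and most other members lie between the dotted lines.

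Of the 12 glycan hydrolases, 2 were higher, 5 lower and 5 not called. The called shares were 16.7% and 41.7%, against 31.8% and 34.1% of all genes tested. The largest falls were those of neuraminidase and iduronate sulfatase. Neuraminidase (Neu1, ENSMUSG00000007038.6, chr17:35150165-35156292 in GRCm39), which takes sialic acid off glycoproteins, read 354.0, 372.1 and 335.9 in WT and 161.5, 139.9 and 140.0 in the libraries labelled GαqKO (-1.26, SE 0.099, adjusted p = 7.85e-08). Each of the latter was below every WT library, and the mean was 41.6% of WT, although all Neu1 exons lie within the span of 1110038B12Rik. Iduronate sulfatase (Ids, ENSMUSG00000035847.16, chrX:69386675-69408718 in GRCm39), an X-linked enzyme of heparan and dermatan sulfate breakdown, read 1200, 1210 and 1217 against 595.3, 538.8 and 597.2 (-1.07, SE 0.058, adjusted p = 1.58e-09). It was tight within each group and at 47.7% of WT. Relative to the X chromosome median, its log2 fold change was -0.80.

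β-Mannosidase (Manba), which acts late in N-glycan breakdown, fell from a range of 81.4 to 110.7 in WT to one of 54.5 to 60.4 (-0.69, adjusted p = 0.00297). α-Galactosidase A (Gla), the X-linked enzyme deficient in Fabry disease, fell from a range of 292.1 to 311.2 to one of 220.7 to 233.6 (-0.41, adjusted p = 0.000706), and less the X chromosome median this came to -0.14 (adjusted p = 0.139). β-Glucuronidase (Gusb) fell modestly, from a range of 864.2 to 936.6 to one of 714.0 to 759.6 (-0.27, adjusted p = 0.000915). β-Galactosidase (Glb1), in contrast, rose from a range of 528.4 to 584.2 to one of 685.8 to 764.3 (0.37, SE 0.066, adjusted p = 0.000234). Iduronidase (Idua), which acts next to Ids on the same sulfated chains, was called higher at a low level, with 31.3 to 37.9 in WT and 42.8 to 61.0 (0.57, adjusted p = 0.0338). The Idua call was lost without WT replicate 1 (0.0972) or 2 (0.0508) and without GαqKO replicate 1 (0.125) or 3 (0.102), and 50.1% of its exon length lies within other genes.

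The other 5 glycan hydrolases were not called. Acid α-glucosidase (Gaa), the glycogen-degrading enzyme lacking in Pompe disease, read 1377 to 1426 in WT and 1427 to 1541 in the libraries labelled GαqKO, barely without overlap, with a 95% interval of the log2 fold change from -0.01 to 0.20, and it was called without GαqKO replicate 2 (0.13, adjusted p = 0.0453). The interval of Hexa, the α subunit of β-hexosaminidase, ran from -0.01 to 0.42, and Hexa was called without GαqKO replicate 1 (0.30, adjusted p = 0.021). The keratan sulfate enzyme Galns (-0.25 to 0.25), α-mannosidase Man2b1 (-0.23 to 0.10) and the heparan sulfate enzyme Naglu (-0.16 to 0.23) had intervals on both sides of 0.

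The lipid genes were led by a fall of Lipa. Lysosomal acid lipase (Lipa, ENSMUSG00000024781.17, chr19:34469712-34522163 in GRCm39), which frees cholesterol and fatty acids from lipoprotein lipids, read 581.6, 538.2 and 520.1 in WT and 163.4, 166.5 and 175.2 in the libraries labelled GαqKO. All of the latter lay near 30.8% of the WT mean, with a log2 fold change of -1.69 (SE 0.083, adjusted p = 5.79e-10). Npc2, the soluble carrier that passes cholesterol to Npc1, rose from a range of 2636 to 2792 to one of 3453 to 3892 (0.45, SE 0.05, adjusted p = 2.42e-06), whereas its partner Npc1 was called lower. Psap, the precursor of the saposins that present sphingolipids to their hydrolases, was the most abundant member per kilobase in both groups and fell from a range of 6274 to 6737 to one of 4953 to 5404 (-0.33, SE 0.045, adjusted p = 2.15e-05). Its chromosome, 10, had a median of -0.28, and the change of Psap less that median was -0.05 (adjusted p = 0.372). Ppt1, which strips fatty acids from proteins, was not called, with 511.7 to 549.8 and 539.8 to 647.5 (0.13, 95% interval -0.03 to 0.30).

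Of the 5 proton pump members, 4 were lower and Atp6v0d1 was higher (80% and 20%, against 34.1% and 31.8% of all genes tested). Atp6v1a, the catalytic subunit that splits ATP, fell from a range of 1610 to 1728 in WT to one of 1168 to 1235 (-0.45, SE 0.049, adjusted p = 2.28e-06). The accessory subunit Atp6ap1 fell from a range of 2025 to 2092 to one of 1511 to 1584 (-0.40, adjusted p = 2.52e-06), and being X-linked it fell by 0.13 less the X chromosome median, which was still called (adjusted p = 0.0179). The membrane-embedded Atp6v0a1 (640.1 to 733.9 against 542.8 to 597.2, -0.30, adjusted p = 0.00173) and the regulatory Atp6v1h (292.4 to 317.6 against 232.4 to 263.9, -0.29, adjusted p = 0.0109) fell to a similar degree, and the Atp6v1h call was lost with DESeq2 on the recovered reads of 5 libraries (adjusted p = 0.14). Atp6v0d1, which couples the stalk of the pump to its membrane ring, rose from a range of 613.9 to 674.5 to one of 795.4 to 852.1 (0.37, adjusted p = 9.85e-05), but chromosome 8 had a median of 0.29, and less that median the change was 0.08 (adjusted p = 0.292).

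The other pump subunit genes leaned the same way. Of 15 tested among 19 listed, 8 were lower, 1 was higher (Atp6v1g2, 74.4 to 105.6, a form typical of neurons) and 6 were not called, so that over all 20 tested pump genes 12 were lower and 2 higher, against the 34.1% and 31.8% of all genes. Ordinary subunits such as Atp6v1g1 (751.0 to 486.3, -0.62), Atp6v0b (346.9 to 248.5, -0.48), Tcirg1 (809.6 to 591.0, -0.45) and Atp6v0c (767.7 to 575.1, -0.42) fell moderately. Less the medians of their chromosomes, these changes were -0.27, -0.12, -0.31 and -0.41 in that order. The X-linked Atp6ap2, called lower at -0.27, came to 0 less the X chromosome median. For Atp6v0b, 100% of the exon length lies within a predicted gene. Atp6v0e2, a small membrane subunit, fell from a mean of 526.8 to 55.1 (-3.24, adjusted p = 1.04e-10), with 56.2% of its exon length within other genes. Among the uncalled were 5 subunit genes of the ATP-splitting V1 part, Atp6v1b2, Atp6v1c1, Atp6v1d, Atp6v1e1 and Atp6v1f, with log2 fold changes between -0.21 and 0.10.

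Across 97 further lysosomal genes, of which 83 were tested, 23 were higher and 36 lower (27.7% and 43.4%), shares close to those of the members. Over all genes tested, the shares were 31.8% and 34.1%. Of the 27 other hydrolases and activators tested, 10 rose and 10 fell (37% each), near the shares over all genes. The heparan sulfamidase Sgsh rose from a mean of 86.2 to 199.1 (1.2, adjusted p = 1.59e-06), and the arylsulfatase Arsb from 912.5 to 1402 (0.62). The ganglioside activator Gm2a fell from 153.4 to 59.9 (-1.34), the protease Ctsw from 128.6 to 7.41 (-4.01), and the mannosidase Man2b2 from a range of 239.9 to 297.6 to one of 2.3 to 3.0 (adjusted p = 4.08e-11). Like Ctsc and Ctsh, Man2b2 was near or at the floor in every library labelled GαqKO and passed the filter through WT libraries alone. Genes that are not hydrolases, such as Rragb, Krt14 and Ddx3y, did so too, and the share of such genes over all genes was not counted.

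Of the 19 other membrane proteins tested, 5 rose and 9 fell, none past a log2 fold change of 1. These are 26.3% and 47.4%, against 31.8% of all genes tested called higher and 34.1% called lower. In mannose 6-phosphate sorting 5 of 9 fell and 2 rose (55.6% and 22.2%). Gnptab, which encodes 2 subunits of the enzyme that starts the tag, fell from 637.0 to 332.7 (-0.94), and the large receptor Igf2r from 1006 to 668.6 (-0.58). The alternative sorting receptor Sort1 fell from 860.9 to 104.5 (-3.03, with 93.6% of exons within other genes), while the small receptor M6pr rose from 1150 to 1328 (0.21). Of the 10 tested genes that regulate MiT factors, 4 rose and 4 fell (40% each). Rragb, an X-linked Rag GTPase, was at least 78.1-fold lower, with 219.5 to 242.2 in WT against 0 to 1.9, and Rragd fell from 48.1 to 16.5 (-1.49). Rraga, the close relative of Rragb, was far more abundant and fell less, from 2019 to 1778 (-0.18). The calcineurin catalytic subunits Ppp3ca (0.92) and Ppp3cb (0.75), which dephosphorylate Tfeb, rose, as did Fnip2, a partner of folliculin (157.7 to 318.0, 1.01). Less the medians of their chromosomes, Ppp3ca came to 0.59, Ppp3cb to 0.67, Fnip2 to 0.69, Rragd to -1.13 and Rraga to 0.17. The calcineurin subunit Ppp3r1 and folliculin itself (Flcn) were not called, each with a log2 fold change of -0.03. Among 3 tested inhibitors of cathepsins, cystatin C (Cst3) was the 1 called, from 1792 to 2514 (0.49).

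**Figure D4:**
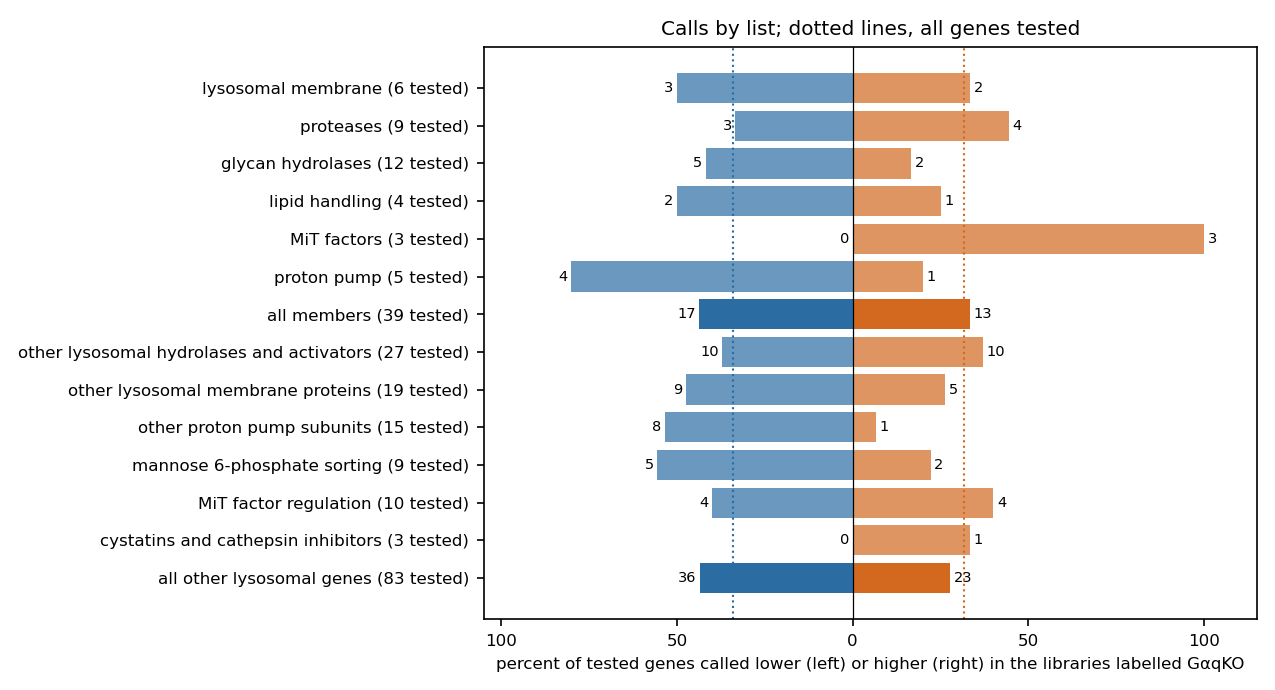
Percent of tested genes (horizontal axis) called lower (left) or higher (right) in the libraries labelled GαqKO for each role of the members and each list of other lysosomal genes, with the number of called genes at the end of each bar. Dotted lines mark the shares over all genes tested, 34.1% lower and 31.8% higher; both lists of pump genes extend past the lower line and stay short of the higher one.

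Chromosomes differed in their median change. Over the autosomes the medians ran from -0.355 on chromosome 4 to 0.325 on chromosome 3, and that of 484 X-linked genes was -0.27. Of the 5 X-linked members, Lamp2 (0.33) and Tfe3 (0.11) were higher and Gla (-0.41), Ids (-1.07) and Atp6ap1 (-0.40) lower. Less the X median, Lamp2 came to 0.60 and Tfe3 to 0.38. Xist, the RNA that silences an X chromosome in female cells, was listed at 0 in all 6 libraries, with all of its exons within other genes, and Ddx3y was at 0 in the libraries labelled GαqKO as given above; the part of sex chromosomes in these values was not tested. With every chromosome's median removed, Psap, Gla, Atp6v0d1, Cd68 and Ctsb lost their calls, while Ctsd, Gaa, Man2b1 and Ppt1 gained one with the signs given above, as did Mcoln1 and Galns with a lower level. The members past a log2 fold change of 1 kept their calls and directions.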

How the data were processed

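Per the labels and the study's methods, the authors sequenced poly(A) RNA of 6 MEF libraries as stranded, paired reads, aligned them to GRCm39 with Rbowtie2, an aligner that does not split reads across introns, and counted them with featureCounts on GENCODE release 32; the strand setting and the handling of reads in overlapping genes are not given in the sources used here. The deposited values are counts that the authors divided by 1 size factor per library, a signal and not raw counts. Whole reads could be recovered in 5 libraries (9853000 to 12229175 reads, all values within 0.1 of a whole number), and not in GαqKO replicate 3, for which depth is unknown.

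Of 56953 identifiers, 56310 (98.9%) matched GENCODE release 39, used for symbols, GRCm39 coordinates, exon length (all annotated exons merged, which sets levels per kilobase) and overlap with other genes. Genes that reached 10 normalized counts in 3 or more libraries (2 where a library was left out) were tested with limma 3.58.1 in R 4.3.3, with a trended prior on log2(normalized counts + 1), GαqKO against WT, without covariates, and Benjamini-Hochberg adjustment over all 14096 genes. A call is an adjusted p under 0.05, and the study's log2 fold change of 1 was the size threshold. Fold changes are on the log2(value + 1) scale and understate those of low genes. Groups follow the genotype labels. The study calls the libraries biological replicates, and where these are dishes of 1 line the p-values measure only their spread. The fit was tested on simulated data. edgeR 4.0.16 and DESeq2 1.42.0 on the recovered reads, other pseudocounts and filters, TMM scaling, chromosome centring, a replicate block and leaving out each library were alternatives.

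All 43 members are named, with every library for those past both thresholds and for Lamp1, Lamp2, Ctsb, Ctsd, Tfeb and Tfe3. The members and all gene lists were chosen with earlier results of these data known. Promoters come from RefSeq (GRCm38.p6).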

Additional observations from a re-analysis of the deposited data

How the results depend on the processing

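Over 16 alternatives, 9 to 13 members were called higher and 14 to 18 lower, and 20 of the 30 called members, 8 higher and 12 lower, kept their call and direction in every fit that could test them. The members called lower past a log2 fold change of 1 numbered 5, with 6 without a filter on low values or with chromosome medians removed, 4 without the members largely within other genes, and 3 when at least 10 normalized counts were asked of every library, a filter that removes Ctsc and Ctsh by construction. With 1 library left out at a time, the calls ran from 9 to 12 higher and from 15 to 17 lower, with 3 higher and 5 to 6 lower past the fold; for members without a call the log2 fold change ran from -0.07 to 0.05 for Galns, -0.02 to 0.11 for Mcoln1, 0.00 to 0.06 for Ctsz, -0.11 to 0.00 for Man2b1 and -0.03 to 0.11 for Naglu. Removing chromosome medians turned Mcoln1 to -0.24 (adjusted p = 0.0152), Galns to -0.29 (0.0486) and Ctsz to -0.01, and gave 13 higher and 18 lower. Recovered reads of 5 libraries turned Naglu to -0.01 in edgeR and -0.02 in DESeq2, and gave 11 higher and 16 lower in edgeR and 10 and 14 in DESeq2. Leaving out the 7 members with 50% or more of their exon length within other genes gave 10 and 15; this alternative was chosen after seeing the data. A replicate block gave 11 higher and 16 lower. Same-numbered libraries did not deviate together (correlations of -0.045, -0.148 and -0.064, and 0 of 6 libraries closest to their own number), so no sign of pairing was seen. With 3 libraries per group, these values cannot exclude a pairing. Where a call was lost, the cause was not tested. Low levels, under about 10 normalized counts, limit Cln3, Ctsf, Ctsk and Ctss.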
